A study of Mus musculus with 2 samples.

Results

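Type I interferon response genes were described in CD8 T cells taken from aged hosts. The set was a fixed list of 38 gene symbols, and all 38 were found among the 31017 symbols of the count tables. Members were chosen by name, not by a level, and their UMIs (unique molecules counted) were summed in each cell and over each library. The members, and the gene lists read beside them, were chosen with earlier results of these data known.

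Old recipient cells were CD45.2+CD3e+CD8a+ cells of C57BL/6J recipients that were 24 months old when they received cells. Young donor cells were CD45.1+CD3e+CD8a+ cells that came from donors aged 3 months as a transfer of total CD8 T cells. Both were wild type and were sorted from spleen 1 month after the transfer, at a host age of 25 months, and each gave 1 droplet library read from the 5' end. Each group being a single library, no test was made, the library and the group cannot be told apart, and every interval below covers counting error only. Whether 1 mouse or a pool of mice gave both libraries was not stated in the labels, and the donor cells had spent a month in an aged animal, so they are not cells of a young host.

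Type I interferons bind a receptor of the chains Ifnar1 and Ifnar2, whose kinases Jak1 and Tyk2 activate signalling proteins, among them Stat2. Stat2 acts with Irf9 in a complex that binds interferon-stimulated response elements and switches on antiviral genes, among them Ifit, Oas, Mx and Isg15 genes. In T cells the pathway is known for shaping survival, expansion and memory, and Irf1 and part of the other targets also respond to interferon gamma.

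Ifit1, Ifit3, Isg15 and Rsad2 are shown by their promoters because they were among the members with the steepest difference between high and other cells below, and Irf1 because it had the shallowest. Sequences are from RefSeq (GRCm38.p6), 5' to 3' on the strand of the gene, from 250 bases before the start of the gene to 50 bases after it. Capitals mark GAAA, any 2 bases and GAAA on either strand, the core of an interferon-stimulated response element, and in Irf1 they mark TTC, any 3 bases and GAA, the core of an interferon gamma-activated sequence.
Ifit1: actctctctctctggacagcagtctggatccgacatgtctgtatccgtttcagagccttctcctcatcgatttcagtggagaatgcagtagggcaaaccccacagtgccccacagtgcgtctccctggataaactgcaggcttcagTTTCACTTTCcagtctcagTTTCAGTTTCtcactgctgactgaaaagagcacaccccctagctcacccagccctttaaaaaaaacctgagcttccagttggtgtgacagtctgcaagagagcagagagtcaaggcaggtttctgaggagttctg
Ifit3: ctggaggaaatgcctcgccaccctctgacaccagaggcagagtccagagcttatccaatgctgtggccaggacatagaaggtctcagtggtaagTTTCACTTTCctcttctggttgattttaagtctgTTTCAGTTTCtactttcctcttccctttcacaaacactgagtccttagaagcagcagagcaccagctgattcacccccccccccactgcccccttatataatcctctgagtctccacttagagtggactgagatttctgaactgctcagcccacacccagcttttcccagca
Isg15: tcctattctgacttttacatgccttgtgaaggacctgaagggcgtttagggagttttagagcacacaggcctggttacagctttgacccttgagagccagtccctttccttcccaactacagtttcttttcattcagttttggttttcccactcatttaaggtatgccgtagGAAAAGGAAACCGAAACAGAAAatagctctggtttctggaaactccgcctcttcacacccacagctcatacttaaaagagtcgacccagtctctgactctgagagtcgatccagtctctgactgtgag
Rsad2: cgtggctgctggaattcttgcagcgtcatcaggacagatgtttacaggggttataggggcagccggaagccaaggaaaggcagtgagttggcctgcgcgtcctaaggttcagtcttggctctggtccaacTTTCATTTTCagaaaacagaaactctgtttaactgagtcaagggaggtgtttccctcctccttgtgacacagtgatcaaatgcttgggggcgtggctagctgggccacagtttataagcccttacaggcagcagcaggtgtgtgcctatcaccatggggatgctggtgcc
Irf1: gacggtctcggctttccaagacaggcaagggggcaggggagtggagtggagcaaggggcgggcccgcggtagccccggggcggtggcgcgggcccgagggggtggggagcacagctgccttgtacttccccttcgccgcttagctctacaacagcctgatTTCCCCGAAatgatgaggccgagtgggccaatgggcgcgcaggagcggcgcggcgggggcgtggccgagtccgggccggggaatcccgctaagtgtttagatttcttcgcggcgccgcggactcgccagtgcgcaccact

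The windows lie at chr19:34640639-34640938 (plus strand) for Ifit1, chr19:34583279-34583578 (plus) for Ifit3, chr4:156200769-156201068 (minus) for Isg15, chr12:26456403-26456702 (minus) for Rsad2 and chr11:53769764-53770063 (plus) for Irf1. The first motif began 104 and 85 bases before the start of Ifit1 and 156 and 122 bases before that of Ifit3. In Isg15 there were 3 overlapping matches, the farthest 78 bases before the start, and Rsad2 had 1 match 120 bases before it. Promoters were matched for 30 of the 38 members, and 16 of these 30 (53.3%) held the first motif on either strand, against 3.99% of 27025 genes with a promoter of the same length. The second motif, which reads alike on both strands, was held by 6 of the 30 (20%), against 9.55% of all genes. A match is a description of letters, and its absence from a window says nothing of a factor.

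Cells of both libraries expressed the genes they were sorted on. Cd3e had 935 CPM (counts per 1000000 UMIs of the same cells) in old recipient cells and 819 CPM in young donor cells, and Cd8a had 513 CPM in recipient and 485 CPM in donor cells. The libraries kept 5366 recipient and 7489 donor cells, with medians of 6916 UMIs per recipient cell and 7803 per donor cell. Some genes that define other spleen cells were at or near 0, with 0 UMIs of the plasmacytoid dendritic gene Siglech in both libraries and 1 UMI of the monocyte gene Cd14 in each. Others on the same lists were not. The macrophage or monocyte list as a whole (9 genes, 0 of them at 0) summed to 99.8 CPM in recipient and 95.5 CPM in donor cells, of which Cst3 gave 98.3 CPM in recipient and 92.6 CPM in donor cells. The B list as a whole (8 genes, 1 of them at 0 in recipient and 2 in donor cells) summed to 190 CPM in recipient and 164 CPM in donor cells, mostly Ighm. The plasmacytoid list (7 genes, 2 at 0 in each) summed to 23.6 CPM in recipient and 30.6 CPM in donor cells. The plasma cell list (6 genes, 2 at 0 in recipient and 1 in donor cells) summed to 62.1 CPM in recipient and 43.9 CPM in donor cells. The 2 libraries shared 105 barcodes, carried by 61 kept recipient and 68 kept donor cells.

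Over all kept cells the 38 members together had 1792 CPM (95% Poisson interval 1779 to 1806) in old recipient cells and 1586 CPM (1576 to 1596) in young donor cells. That is a log2 ratio of recipient over donor of 0.18 (0.16 to 0.19), or 1.13-fold, and without the shared barcodes it was also 0.18. Per cell and without scaling to depth, the means were 12.7 member UMIs in recipient and 12.4 in donor cells. Most of the scaled difference was 1 gene, Ifi27l2a (ENSMUSG00000079017, chromosome 12, 103442167 to 103443680), which encodes a small hydrophobic protein and accounted for 58.6% of it. Without Ifi27l2a the other members summed to 1421 CPM in recipient and 1336 CPM in donor cells, a log2 ratio of 0.09 (0.07 to 0.11).

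Each of the 38 members had at least 100 UMIs over both libraries. Their log2 ratios ranged from -0.34 to 0.76 with a median of 0.11, beside a median of 0.04 over 10401 genes. At least 25% higher in recipient cells were 6 of 38 (15.8%), beside 7.54% of all genes, and 1 of 38 (2.63%) was at least 20% lower, the same fold the other way, beside 5.37% of all genes. The other 31 lay within these thresholds. The counting interval lay above 0 for 18 members, below 0 for 4 and held 0 for 16. The share of all genes by this interval rule was not computed, so these counts are not a result about the list.

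The 4 transcription factors lay within the thresholds. Irf7, which amplifies interferon production, had 62.8 CPM in old recipient cells and 56.4 CPM in young donor cells (log2 0.15, 0.08 to 0.23). Irf9, the DNA-binding part of the interferon complex, had 46.1 CPM in recipient and 41.0 CPM in donor cells (0.17, 0.08 to 0.26), and its partner Stat2 had 12.8 CPM in recipient and 12.3 CPM in donor cells (0.06, -0.11 to 0.23). Irf1 (ENSMUSG00000018899, chromosome 11, 53770014 to 53778374) had 183 CPM in recipient and 169 CPM in donor cells (0.11, 0.07 to 0.16).

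In the Isg15 system, the ubiquitin-like protein gene Isg15 (ENSMUSG00000035692, chromosome 4, 156199424 to 156200818) had 46.1 CPM in old recipient cells and 37.9 CPM in young donor cells (log2 0.28, 0.19 to 0.37). Usp18, which removes Isg15 from proteins and restrains the receptor, lay the other way at 23.6 CPM in recipient and 25.9 CPM in donor cells (-0.13, -0.25 to -0.01). The mouse Isg15 ligase gene Herc6 had 20.1 CPM in recipient and 19.2 CPM in donor cells, with an interval that held 0.

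The sensors did not move together. Zbp1, a sensor of Z-form nucleic acid, was at 58.3 CPM in old recipient cells and 48.5 CPM in young donor cells (log2 0.26, 0.18 to 0.35), and the RNA-activated kinase gene Eif2ak2 (PKR) at 12.8 CPM in recipient and 14.7 CPM in donor cells (-0.20, -0.37 to -0.04). The helicase genes had intervals that held 0, with Ddx58 (RIG-I) at 41.7 CPM in recipient and 44.4 CPM in donor cells and with log2 ratios of 0.00 for Ifih1 (MDA5) and 0.05 for Dhx58 (LGP2). Oasl1, a synthetase-like gene known in mice to limit Irf7 translation, had the steepest ratio of the 38, with 123 UMIs (3.24 CPM) in recipient cells and 112 UMIs (1.92 CPM) in donor cells (0.76, 0.37 to 1.14). Its neighbour Oasl2 (-0.26) and the synthetase gene Oas1a (0.11) had intervals that held 0.

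Among antiviral effectors 3 were past the upper threshold. Ifit1 (ENSMUSG00000034459, chromosome 19, 34640871 to 34650009), which binds foreign 5' RNA ends, had 14.6 CPM in old recipient cells and 10.9 CPM in young donor cells (log2 0.42, 0.25 to 0.59). The exonuclease gene Isg20 had 13.8 CPM in recipient and 10.4 CPM in donor cells (0.41, 0.24 to 0.58). Cmpk2, a mitochondrial nucleotide kinase gene, had 6.79 CPM in recipient and 5.34 CPM in donor cells (0.35, 0.10 to 0.59), and it lay inside the threshold with TMM scaling (log2 0.30).

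The member past the lower threshold was the dynamin-like GTPase gene Mx1, at 5.63 CPM in old recipient cells and 7.14 CPM in young donor cells (log2 -0.34, -0.59 to -0.10). This did not hold with equal weight to each of the 13 cell clusters compared below. Mx1 then had 7.53 CPM in recipient and 6.92 CPM in donor cells (0.12). Bst2, which tethers budding virus, was level at 134 CPM in recipient and 133 CPM in donor cells (0.01, -0.04 to 0.06). Rsad2 (viperin), the member with the fewest UMIs, had 102 UMIs (2.68 CPM) in recipient and 128 UMIs (2.19 CPM) in donor cells, with an interval that held 0 (-0.10 to 0.68). The intervals of Ifit3 and Ifit3b also held 0, and their transcripts are 97.8% identical over 1700 bases, so how their reads were split is uncertain.

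Of the ADP-ribosylation genes, Parp14 had 41.6 CPM in old recipient cells and 35.1 CPM in young donor cells (log2 0.25, 0.15 to 0.34). Parp9 (0.16, 0.05 to 0.27) and its partner Dtx3l (0.07, -0.03 to 0.16) overlap in exons on opposite strands, and whether counting used strand was not given in the sources used here. Of the Schlafen genes, which act in T cell quiescence and in limiting translation, Slfn5 had 15.8 CPM in recipient and 10.2 CPM in donor cells (0.62, 0.45 to 0.79). Slfn1 had 113 CPM in recipient and 102 CPM in donor cells (0.14, 0.09 to 0.20), and Slfn8 had a ratio of 0.12 but shares 92.0% identity with Slfn9.

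Ifi27l2a itself had 371 CPM (365 to 377) in old recipient cells and 250 CPM (246 to 254) in young donor cells, a log2 ratio of 0.57 (0.53 to 0.60). It held 20.7% of all member UMIs in recipient and 15.8% in donor cells. With equal weight to each of the 13 clusters compared below, Ifi27l2a had 390 CPM in recipient and 345 CPM in donor cells. That log2 ratio of 0.18 lay inside the threshold. Trim30a, which restrains Toll-like receptor signalling, was lower at 44.1 CPM in recipient cells, against 51.3 CPM in donor cells (-0.22, -0.31 to -0.13). The abundant member Ifi35 had 80.2 CPM in recipient and 77.9 CPM in donor cells (0.04, -0.03 to 0.11). The remaining members Ifit1bl1, Rtp4, Samd9l, Xaf1, Phf11b and Lgals3bp had ratios from -0.07 (Lgals3bp) to 0.27 (Ifit1bl1).

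**Figure D1:**
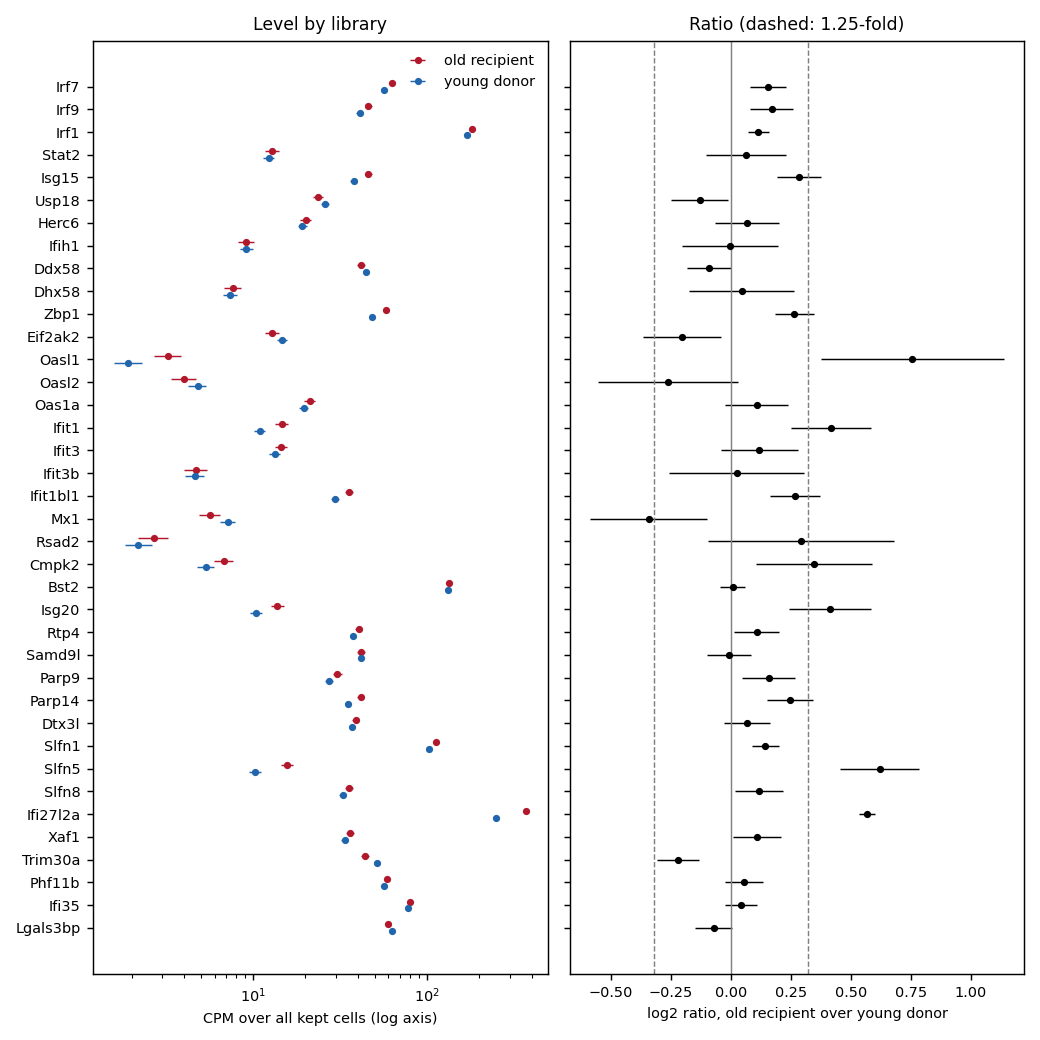
Left, CPM of each of the 38 members over all kept cells of the old recipient (red) and young donor (blue) library, on a log axis. Right, the log2 ratio of old recipient over young donor; bars are 95% Poisson intervals, and 6 members lie past the upper dashed line (25% higher) and 1 past the lower (20% lower).

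To compare cells of unlike depth, each cell was thinned to 3500 UMIs, which left 4866 old recipient and 7026 young donor cells. Too shallow for this were 9.32% of the recipient cells and 6.18% of the donor cells. The mean was 6.49 member UMIs per recipient cell and 5.72 per donor cell, and the median was 5 in both. At the low end, 1.46% of recipient and 1.54% of donor cells had none. The upper end was long, with a 95th percentile of 16 UMIs in recipient and 13 in donor cells and a maximum of 120 in recipient and 113 in donor cells. The variance was 5.82 times the mean in recipient and 5.21 times in donor cells. Covariance between members made up 66.0% of that variance in recipient and 65.3% in donor cells. Without thinning, members took a median of 0.150% of a recipient cell's UMIs and 0.133% of a donor cell's, with maxima of 3.35% in recipient and 3.52% in donor cells.

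**Figure D2:**
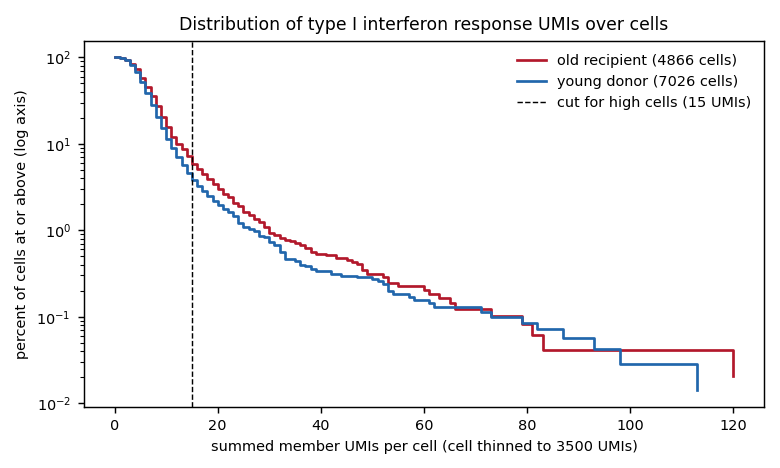
Percent of cells (log axis) with at least the number of summed member UMIs on the x axis, for old recipient (red) and young donor (blue) cells thinned to 3500 UMIs. The dashed line at 15 UMIs is the threshold for high cells, reached by 5.90% of old recipient and 3.80% of young donor cells, and the curves end at 120 UMIs for old recipient and 113 for young donor cells.

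High cells were set as those with at least 15 member UMIs, the smallest whole number reached by no more than 5% of cells as a mean of both libraries. They were 287 old recipient cells (5.90%, exact binomial interval 5.25 to 6.60) and 267 young donor cells (3.80%, 3.37 to 4.27). Without the shared barcodes the threshold fell at 16, which 5.11% of recipient and 3.37% of donor cells reached. High cells are a range of a continuous score and not a type. Exactly at 15 stood 35 recipient and 36 donor cells, and another 67 recipient and 59 donor cells had 14. High cells held 21.8% of all member UMIs in recipient and 16.3% in donor cells. Their median was 20 member UMIs, against 5 in other cells, in each library. These came from a median of 10 distinct members in high recipient cells and 11 in high donor cells, against 4 in the other cells of each.

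The threshold was the same in both libraries and largely sets the level above it, so the levels within high cells are a description. High cells had 6519 CPM of members in old recipient and 6631 CPM in young donor cells (log2 -0.02, -0.06 to 0.01), and other cells had 1506 CPM in recipient and 1389 CPM in donor cells (0.12, 0.10 to 0.13). Before thinning, high cells had 43.5 member UMIs per recipient cell and 47.2 per donor cell, and other cells 11.4 in each library. High cells were shallower, at a median of 5937 UMIs against 7317 in other recipient cells and 6502 against 8028 in other donor cells. Their median mitochondrial share was 2.67% against 2.88% in other recipient cells and 2.68% against 3.03% in other donor cells. The part of depth in the tail was not tested.

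Ifi27l2a gave 35.6% of the gap in member UMIs between high and other old recipient cells and 32.6% of that in young donor cells. High cells averaged 7.62 thinned UMIs of it against 0.984 in other recipient cells, and 7.09 against 0.692 in other donor cells. It outnumbered all other members together in 22.3% of high recipient and 20.6% of high donor cells, while 19 high recipient and 29 high donor cells had none of it. The next contributors were Isg15, with 6.72% of the gap in recipient and 7.23% in donor cells, and Bst2, with 5.43% in recipient and 5.64% in donor cells. Each member counted in the score that chose the high cells, so these shares are partly set by that choice.

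Ranking cells without Ifi27l2a, at 12 or more UMIs, gave 231 high recipient cells (4.75%, 4.17 to 5.38) and 245 high donor cells (3.49%, 3.07 to 3.94). In each library 181 cells were high on both scores. That is 63.1% of the cells high on all 38 members in recipient and 67.8% in donor cells, and, of the cells high without Ifi27l2a, 78.4% in recipient and 73.9% in donor cells.

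So that no member chose the cells it was read in, each was read in cells ranked on the other 37. Of 37 members with enough UMIs, 35 were at least 2-fold higher in high than in other cells in both libraries, beside 1.56% of 9130 genes outside the list (read in cells ranked on all 38), and 0 were at least 2-fold lower, beside 0.307%. The intervals of all 37 lay above 0 in both libraries. The median log2 ratio over the 38 was 2.10 in old recipient and 2.21 in young donor cells, beside 0.12 in recipient and 0.10 in donor cells over the genes outside the list.

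The steepest was Rsad2 (ENSMUSG00000020641, chromosome 12, 26442746 to 26456452), whose enzyme makes a chain-terminating nucleotide and whose promoter is printed above. In old recipient cells it had 66 UMIs in high cells (35.0 CPM) and 31 in other cells (0.891 CPM), a log2 ratio of 5.29 (4.66 to 5.96). In young donor cells it had 94 UMIs in high cells (49.5 CPM) and 27 in other cells (0.489 CPM), a log2 ratio of 6.66 (6.03 to 7.34). High cells thus held 68.0% of its UMIs in recipient and 77.7% in donor cells. With under 100 UMIs in a library after leaving out shallow cells, Rsad2 was not among the 37.

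The Ifit genes and Isg15 followed. Ifit1 had 157 CPM in high and 6.497 CPM in other old recipient cells (log2 4.598, 4.34 to 4.85), and 153 CPM in high and 5.59 CPM in other young donor cells (4.77, 4.54 to 5.01). High cells held 56.8% of its UMIs in recipient and 47.7% in donor cells. Ifit3b had ratios of 4.64 in recipient and 4.53 in donor cells, and Ifit3 4.16 in recipient and 4.12 in donor cells. Each of these near copies stayed in the score for the other, and how their reads were split is uncertain. Isg15 had 379 CPM in high and 27.7 CPM in other recipient cells (3.77, 3.63 to 3.92), and 427 CPM in high and 24.1 CPM in other donor cells (4.15, 4.01 to 4.28).

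The rest of the 12 steepest were other antiviral effectors and sensors. The log2 ratio was 3.44 in recipient and 3.35 in donor cells for Oasl2, 3.01 in recipient and 3.32 in donor cells for Mx1, and 2.96 in recipient and 3.29 in donor cells for Isg20. It was 2.87 in recipient and 3.54 in donor cells for Oasl1, 2.55 in recipient and 2.57 in donor cells for the receptor chaperone gene Rtp4, and 2.40 in recipient and 2.61 in donor cells for Ifih1. Cmpk2, the neighbour of Rsad2 on chromosome 12, had 38.1 CPM in high and 4.86 CPM in other recipient cells (2.97, 2.55 to 3.37), and 58.2 CPM in high and 3.46 CPM in other donor cells (4.07, 3.72 to 4.42). The intervals of the 2 libraries did not overlap for Rsad2, Cmpk2, Isg15 and Slfn5, each steeper in donor cells. This difference was not tested, and high cells were a smaller share of the donor library. The share of all genes with such intervals was not computed, so this is no trait of these members. Of the 12 steepest, 10 had a promoter and 6 of these held the first motif, as did 10 of the 20 other members with a promoter.

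At the other end stood Irf1, at 219 CPM in high and 176 CPM in other old recipient cells (log2 0.32, 0.17 to 0.46), and 222 CPM in high and 165 CPM in other young donor cells (0.43, 0.29 to 0.57). Samd9l, an antiviral and growth-limiting gene, was the other member under 2-fold in a library, at 0.96 in recipient and 1.30 in donor cells. Bst2 had 391 CPM in high and 121 CPM in other recipient cells (1.69, 1.57 to 1.81), and 439 CPM in high and 123 CPM in other donor cells (1.83, 1.72 to 1.94). Ifi27l2a was in the middle, at 1379 CPM in high and 322 CPM in other recipient cells (2.10, 2.03 to 2.17), and 1006 CPM in high and 219 CPM in other donor cells (2.20, 2.13 to 2.27). Slfn1 had 1.09 in recipient and 1.22 in donor cells, and Ifi35 1.09 in recipient and 1.12 in donor cells. Ranked by the lower of their 2 ratios, the other members lay between Ifi35 and the 12 steepest.

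**Figure D3:**
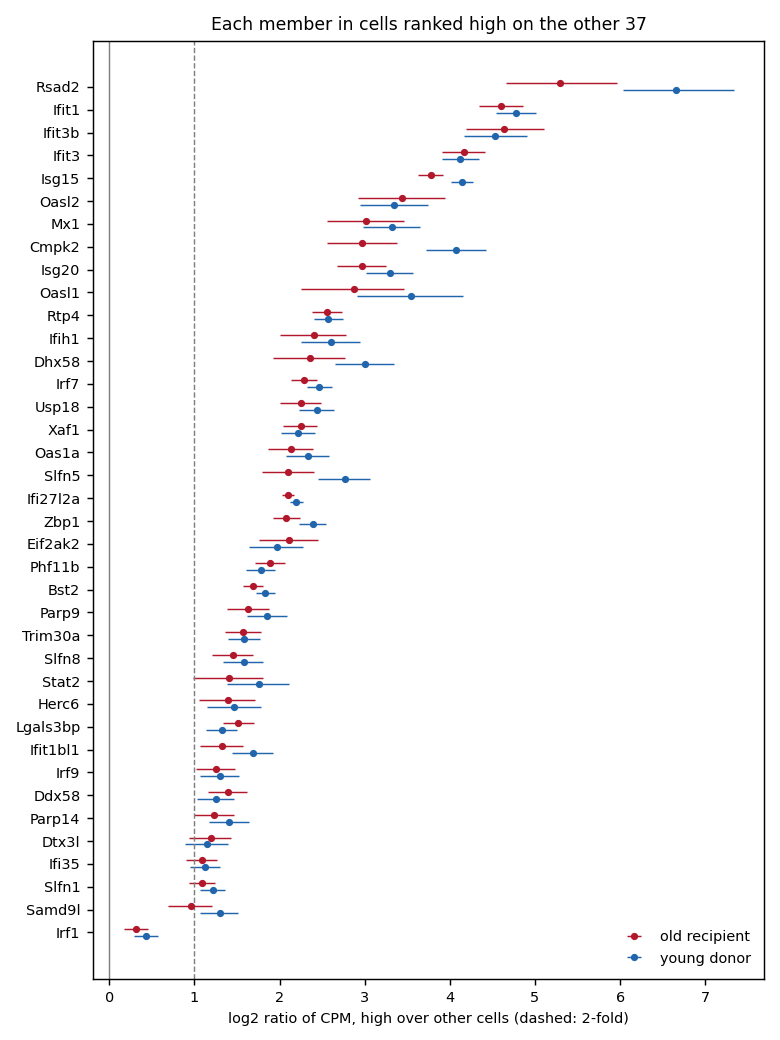
Log2 ratio of CPM in high over other cells for each member, in old recipient (red) and young donor (blue) cells, where high cells were ranked on the other 37 members; bars are 95% Poisson intervals. Rsad2, Ifit1, Ifit3, Ifit3b and Isg15 lie at 3.77 or above, and Irf1 lies lowest at 0.32 in recipient and 0.43 in donor cells.

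Interferon genes outside the list were also higher in high cells. Of 52 other interferon-stimulated genes with enough UMIs, 38 were at least 1.5-fold higher in both libraries and 0 lower, beside 4.04% of all genes outside the members higher and 1.27% lower. Their median log2 ratio was 1.02 in old recipient and 1.04 in young donor cells. The synthetase gene Oas3 had 62.6 CPM in high and 13.0 CPM in other recipient cells (2.27), and 63.1 CPM in high and 17.5 CPM in other donor cells (1.85). The ubiquitin ligase gene Rnf213 had 1.65 in recipient and 2.01 in donor cells, and Ly6a (Sca-1) 1.54 in recipient and 1.85 in donor cells. Phf11a had 2.15 in recipient and 2.27 in donor cells, but it is 97.0% identical to the member Phf11b over 864 bases. The listed genes Oas1g, Trim30d and Slfn9 are also close to members. Over the aligned bases they are 97.6% identical to Oas1a, 90.1% to Trim30a and 92.0% to Slfn8.

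Of 17 interferon-inducible GTPases, which attack intracellular pathogens and respond strongly to interferon gamma, 15 were at least 1.5-fold higher in both libraries. Gbp6 had 36.0 CPM in high and 8.55 CPM in other old recipient cells (log2 2.08), and 35.8 CPM in high and 6.01 CPM in other young donor cells (2.57). Among 11 antigen processing genes 2 passed 1.5-fold, the peptide transporter gene Tap1 (0.82 in recipient and 0.94 in donor cells) and the loading factor gene Tapbp (0.70 in recipient and 0.76 in donor cells). The median over the 11 was 0.50 in recipient and 0.57 in donor cells.

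Both type I receptor genes stayed under 1.5-fold. Ifnar1 had a log2 ratio of 0.40 in recipient and 0.19 in donor cells, and Ifnar2 0.02 in recipient and 0.26 in donor cells. Of 12 interferon genes only Ifng reached 100 UMIs. It had 26.6 CPM in high and 11.5 CPM in other recipient cells (1.21), and 21.0 CPM in high and 9.18 CPM in other donor cells (1.20). Of 10 sensing genes 2 passed, the RNA-editing gene Adar (1.23 in recipient and 1.15 in donor cells) and the dNTPase gene Samhd1 (0.93 in recipient and 1.10 in donor cells).

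Some genes of antigen-experienced cells passed 1.5-fold and others did not. Of 10 genes of the Gzmk age-associated list 8 were at least 1.5-fold higher in both libraries. Gzmk, a granzyme gene, had 464 CPM in high and 154 CPM in other old recipient cells (log2 1.60), and 350 CPM in high and 87.6 CPM in other young donor cells (2.00). The inhibitory receptor genes Lag3 (1.66 in recipient and 2.30 in donor cells), Tigit (1.53 in recipient and 2.12 in donor cells) and Pdcd1 (1.27 in recipient and 1.72 in donor cells) and the exhaustion factor gene Tox (1.03 in recipient and 1.42 in donor cells) were among the 8. Per thinned cell the list had a median of 2 UMIs in high and 0 in other recipient cells, and of 1 in high and 0 in other donor cells.

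Of 11 effector memory genes 6 passed, with the granzyme gene Gzmb at 91.9 CPM in high and 22.6 CPM in other old recipient cells (log2 2.02), and 75.8 CPM in high and 9.59 CPM in other young donor cells (2.98). Of 13 memory genes 3 passed (median 0.26 in recipient and 0.05 in donor cells), Ccl5 (0.93 in recipient and 0.70 in donor cells), Eomes (0.66 in recipient and 0.61 in donor cells) and Nkg7 (0.61 in recipient and 0.59 in donor cells). Of 10 naive genes 0 were higher and 1, Igfbp4, was lower, at -0.59 in recipient and -0.61 in donor cells. The naive list had a median of 6 UMIs in high and 8 in other recipient cells, and of 5 in high and 8 in other donor cells. Of 5 NK-like genes 3 were lower, with the receptor gene Klra7 at -2.72 in recipient and -2.19 in donor cells, and Ikzf2 was higher. Of 8 regulatory T genes only 4 had enough UMIs, and these 4 were higher, with Ctla4 at 1.40 in recipient and 1.42 in donor cells. Foxp3, with 52 UMIs in recipient and 15 in donor cells, was not among them. The lists overlap, as Ctla4 is also on the Gzmk list and Ikzf2 on the regulatory T list. Also higher were the 2 gamma-delta T genes tested, Tcrg-C2 (0.77 in recipient and 2.03 in donor cells) and Tcrg-C4 (1.15 in recipient and 1.66 in donor cells).

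How many cycling genes passed in both libraries depended on Ifi27l2a. With cells ranked on all 38 members 7 of 10 were at least 1.5-fold higher in both libraries, and with cells ranked without Ifi27l2a 0 of 10 were, beside 2.52% of genes outside the members. The median log2 ratio of the list went from 0.88 to 0.25 in recipient cells and from 1.81 to -1.56 in donor cells. In the first ranking the mitotic gene Ube2c had 28.7 CPM in high and 8.63 CPM in other old recipient cells, and 71.0 CPM in high and 9.40 CPM in other young donor cells. In the second it had 36.5 CPM in high and 8.51 CPM in other recipient cells, but 1 UMI (0.564 CPM) in high donor cells and 11.8 CPM in other donor cells. Under that ranking 38 of 52 interferon-stimulated genes, 16 of 17 GTPases, 7 of 10 Gzmk list genes and 6 of 11 effector memory genes passed, and 2 of 4 regulatory T genes, 0 of 13 memory genes and 0 of 2 gamma-delta T genes.

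**Figure D4:**
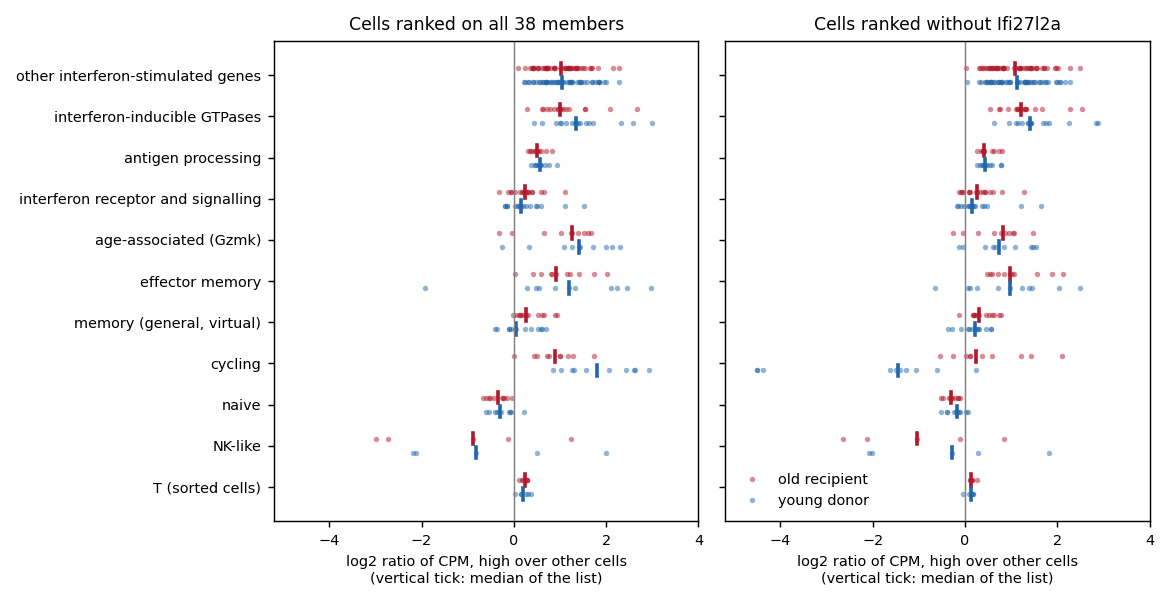
Log2 ratio of CPM in high over other cells for the tested genes of 11 lists, in old recipient (red) and young donor (blue) cells; each point is a gene and the vertical tick is the median of the list. Cells were ranked on all 38 members on the left and without Ifi27l2a on the right, where the cycling genes of the donor library lie mostly below 0 and Ccna2, with 0 UMIs in high donor cells, is drawn at its limit of 3 counts.

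The 20 genes outside the members with the highest ratios in high cells held 6 of the interferon and GTPase lists and 14 others. Absence from these lists does not mean that a gene does not respond to interferon. The 5 that led among genes in no interferon list were the cyclin gene Ccnb2, the class Ib gene H2-T24, Gzmb, Trafd1, which damps innate signalling, and the immunoglobulin light chain gene Igkc. H2-T24 had 25.6 CPM in high and 5.75 CPM in other old recipient cells (log2 2.15), and 26.8 CPM in high and 5.59 CPM in other young donor cells (2.26). Trafd1 had 1.77 in recipient and 2.17 in donor cells. Igkc had 102 CPM in high and 30.3 CPM in other recipient cells (1.75), and 85.8 CPM in high and 18.8 CPM in other donor cells (2.19), while the B list had a median of 0 UMIs per cell in high and other cells of both libraries. Whether the Igkc UMIs are free RNA was not tested. Ccnb2 had 2.44 in recipient and 2.88 in donor cells, but 1.39 in recipient and, from 3 UMIs in high cells, -2.26 (-4.54 to -0.70) in donor cells when cells were ranked without Ifi27l2a. The others were Ube2c, Cenpa and Cdc20 of mitosis, the caspase gene Casp4, the scramblase gene Plscr1, Lag3, Gzmk, the serpin gene Serpina3g and the galectin gene Lgals3.

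To see where in the CD8 compartment the members lay, cells were clustered on genes that excluded the members and the interferon, GTPase and antigen processing lists. Of 17 clusters 13 had at least 50 cells in both libraries, and they are named here by number and leading genes. Member CPM spanned 2.18-fold from the highest to the lowest of the 13.

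The highest levels were in clusters 3, 6, 11, 8 and 7. Cluster 3 (led by Gzmk, Igkc and Tigit) had 2703 CPM in old recipient and 2570 CPM in young donor cells, and cluster 6 (S100a4, Car2, Nrp1) had 2667 CPM in recipient and 2625 CPM in donor cells. Cluster 11 (Ccl3, Ccl4, Lag3) had 2457 CPM in recipient and 2466 CPM in donor cells, cluster 8 (Izumo1r, Myb, Ctla4; regulatory T-like by its markers) 2537 CPM in recipient and 2202 CPM in donor cells, and cluster 7 (Gzma, Zeb2, Cx3cr1) 2287 CPM in recipient and 2150 CPM in donor cells.

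The lowest in both libraries was cluster 10 (the adaptor gene Fcer1g and the NK receptor genes Klra7 and Klrc2), at 1246 CPM in old recipient and 1176 CPM in young donor cells. Next in recipient cells was cluster 1 (Klra3, Ly6c2, Fcgrt), at 1275 CPM in recipient and 1333 CPM in donor cells, and next in donor cells cluster 12 (Nr4a1, Egr1, Ccl4), at 1449 CPM in recipient and 1233 CPM in donor cells. Naive-like cluster 2 (Ccr9, Igfbp4, Ramp1) had 1650 CPM in recipient and 1563 CPM in donor cells, and naive-like cluster 5 1420 CPM in recipient and 1347 CPM in donor cells. Cluster 4, whose leading genes included the GTPase genes Tgtp1 and Igtp, had 1645 CPM in recipient and 1649 CPM in donor cells.

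Depth moved with this order. Median UMIs per cell were 4574 in recipient and 4508 in donor cells of cluster 3, and 8997 in recipient and 8826 in donor cells of cluster 1. Counted per cell and not scaled, cluster 3 had 13.1 member UMIs in recipient and 12.3 in donor cells, close to the 11.4 in recipient and 11.8 in donor cells of cluster 1. Clusters 6 and 8 were the highest of the 13 per cell, with 18.0 and 17.4 UMIs in recipient cells and 15.6 and 16.5 in donor cells. The shallow clusters 7 and 11 had fewer, at 8.81 and 9.81 UMIs in recipient cells and 10.6 and 8.75 in donor cells. Higher CPM in the Gzmk cluster and less RNA per cell cannot be told apart here.

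Of the 13 clusters compared, 6, 8 and 3 had the highest shares of high cells in both libraries. In cluster 3 they made up 12.9% of thinned recipient cells (10.5 to 15.7) and 10.6% of thinned donor cells (8.51 to 13.0), and in cluster 6 16.2% of recipient cells (11.9 to 21.2) and 13.0% of donor cells (9.34 to 17.5). In cluster 8 they were 15.5% of recipient and 9.32% of donor cells, but 6.22% of recipient and 3.39% of donor cells with Ifi27l2a left out of the score, below clusters 7 and 11. In naive-like cluster 2 they were 3.29% of recipient and 3.10% of donor cells, and in cluster 1 1.95% of recipient and 1.73% of donor cells. Cluster 3 alone gave 31.0% of the high recipient and 29.96% of the high donor cells, while it was 15.5% of recipient and 11.99% of donor cells. The small cycling cluster 16 (17 recipient and 47 donor cells, led by Ccnb2 and Ube2c) had 4 high recipient cells (23.5%) and 8 high donor cells (17.02%), and 2 high recipient cells and 1 high donor cell when Ifi27l2a was left out of the score.

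**Figure D5:**
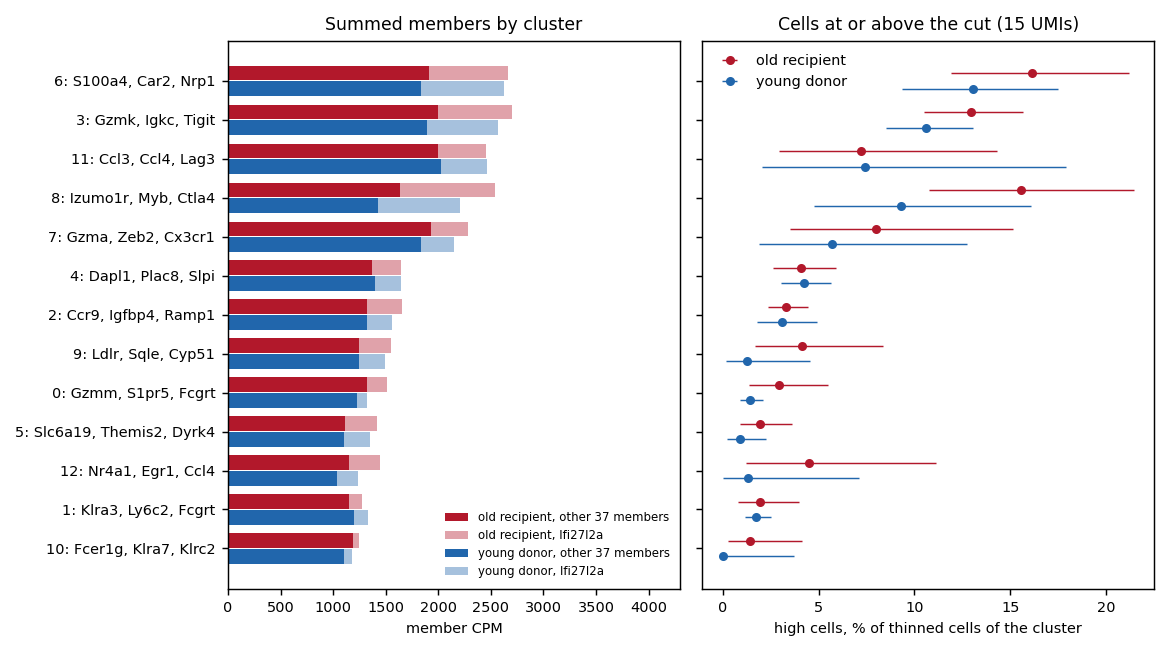
Left, member CPM in each of the 13 clusters compared (number and 3 leading genes), old recipient (red) above young donor (blue), with Ifi27l2a in the paler part of each bar. Right, percent of thinned cells that were high, with exact 95% binomial intervals; clusters 6, 3 and 8 stand highest on the right, and 0 of the donor cells of cluster 10 were high, with an upper bound of 3.69%.

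Within clusters the library ratio was small. The log2 ratio of the summed members was above 0 beyond its counting interval in 6 of the 13 clusters, below 0 in 1 and within the interval in 6, with a median of 0.08. Without Ifi27l2a these counts were 4, 1 and 8. With equal weight to each of the 13 clusters the ratio over all members was 0.08, against 0.18 over all cells. The recipient library had 15.5% of its cells in cluster 3, against 11.99% of the donor library, and it had 6.82% in cluster 1, against 21.3% of the donor library. Ifi27l2a was above 0 beyond its interval in 7 clusters and below in 0. It had 194 CPM in recipient and 94.3 CPM in donor cells of cluster 0 (Gzmm, S1pr5, Fcgrt; log2 1.04, 0.89 to 1.19), but 706 CPM in recipient and 677 CPM in donor cells of cluster 3 (0.06, -0.01 to 0.13). Slfn5 was above 0 in all 10 clusters with at least 30 UMIs, beyond its interval in 2.

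The tail was read only in clusters with at least 5 high cells, so clusters with fewer were left out beforehand. Ranked on the other 37 members, Isg15 was higher in high cells, beyond its interval, in 11 of 11 such clusters of recipient cells. In donor cells it was so in 9 of 9, among them the small cluster 16. For Ifit1 this was so in 10 of 11 clusters of recipient and 8 of 9 of donor cells. For Ifit3 it was 9 of 11 in recipient and 9 of 9 in donor cells, with 0 UMIs in high recipient cells of clusters 9 and 11. For Ifi27l2a it was 10 of 11 in recipient cells, with a log2 ratio of -0.69 in cluster 1, and 8 of 8 in donor cells. In cluster 1, with one of the lowest member levels, Ifit1 had 51 UMIs in 25 high donor cells (239 CPM) and 71 UMIs in 1537 other donor cells (5.13 CPM), a log2 ratio of 5.54 (4.996 to 6.08).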

How the data were processed

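The authors deposited raw UMI counts per gene and barcode for each library, with no normalization. The submitters' processing notes name Cell Ranger, Seurat and the build mm10, and the software version is 3.0.2 per the file headers. The annotation release and use of strand were not given in the sources used here. Features sharing a symbol were summed. Gene positions are from GENCODE M21 (GRCm38).

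Cells needed at least 500 genes and at most 10% mitochondrial UMIs, which 555 recipient and 587 donor barcodes failed. Also removed were the likeliest doublets, at 0.8% per 1000 barcodes, scored against simulated doublets (253 recipient, 512 donor). Kept cells held 38014021 recipient and 58443759 donor UMIs, so 1 UMI was 0.0263 CPM in recipient and 0.0171 CPM in donor cells. Thinning drew 3500 UMIs per cell. The counting intervals were exact at 95%. PCR copies are removed by UMIs, but spread between mice, sorts and libraries is not covered. The Poisson intervals also do not cover spread between cells. Clusters used 2000 variable genes, 30 components, 15 neighbours and Leiden resolution 1. TMM is from edgeR 4.0.16, and Python 3.11.15 did the rest. Procedures were tested on simulated data.

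Full values are given for members at least 25% higher or 20% lower in recipient cells, the 12 steepest in high cells and the 5 with most UMIs; other genes are the 20 steepest in high cells (at least 30 UMIs there) and list genes past 1.5-fold. Members and lists were chosen with earlier results of these data known. Cluster names follow marker lists with rebuilt rules, not the study's.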

Additional observations from a re-analysis of the deposited data

Results flagged for a closer look

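By counting intervals alone, the library ratio lay on different sides of 0 between clusters, and that difference was not tested. These intervals do not cover spread between cells. Across thinned cells the variance of member UMIs was 5.82 times the mean in recipient and 5.21 times in donor cells. The log2 ratio of summed members, old recipient over young donor, was 0.20 in cluster 0 (Gzmm), 0.08 in cluster 2 (Ccr9), 0.07 in cluster 3 (Gzmk), 0.08 in cluster 5 (Slc6a19), 0.20 in cluster 8 (Izumo1r) and 0.23 in cluster 12 (Nr4a1), but -0.06 in cluster 1 (Klra3), each beyond its counting interval.

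Some genes lay on opposite sides of 0 in the libraries when high were set against other cells, again without a test of the difference. The chemokine gene Ccl4 had a log2 ratio of -0.32 in old recipient and 0.34 in young donor cells. With cells ranked without Ifi27l2a, the egress receptor gene S1pr5 had 0.98 in recipient and -0.66 in donor cells. Under the same ranking the mitotic gene Ube2c had 2.10 in recipient cells and, from 1 UMI in high cells, -4.39 (-9.69 to -1.90) in donor cells, and the cyclin gene Ccna2 had 1.21 in recipient cells and at most -1.42 in donor cells, at a limit of 3 counts in high cells where it had 0 UMIs.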

How the results depend on the processing

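With 1 library per group, chance between mice could not be weighed. No paired analysis was possible because each group had 1 library. The log2 ratio of the summed members was 0.13 with TMM scaling, 0.15 on totals without ribosomal, mitochondrial, receptor and immunoglobulin genes, 0.089 without Ifi27l2a and 0.077 with equal cluster weight. At 1.5-fold 2 members were higher and 0 lower; elsewhere 5 to 7 were higher, with Cmpk2 inside the threshold under TMM scaling (log2 0.299), on the reduced totals (0.316) and with at least 1000 genes per cell (0.279). There were 2 lower members with at least 1000 genes per cell, with at most 5% mitochondrial UMIs and with no doublets removed. High cells were 2.06% in recipient and 1.45% in donor cells at a 2% threshold (23 UMIs), 9.95% in recipient and 7.07% in donor cells at a 10% threshold (12 UMIs), and 5.13% in recipient and 3.22% in donor cells with at most 5% mitochondrial UMIs. High recipient cells were 4.76% when thinned to 1000 UMIs, 4.75% without Ifi27l2a in the score, and 5.11% without shared barcodes, a setting chosen after seeing the data. High donor cells were 3.28% with no doublets removed. Where the threshold fell at 16 in place of 15 UMIs (at most 5% mitochondrial UMIs, no doublets removed, no shared barcodes) part of the fall is that step. Other causes were not tested. The span of member CPM over clusters was 2.79-fold at resolution 1.5. Between 29 and 36 members were at least 2-fold higher in high cells in every setting run. Of 228 single-member ratios under 6 alternatives, 226 stayed within the counting interval and 219 kept their sign. Equal cluster weight was not among these 6, and it moved some members further. Under it the log2 ratio was 0.12 for Mx1, against -0.34 over all cells, -0.04 for Irf1, against 0.11, and 0.18 for Ifi27l2a, against 0.57. Slfn5 (0.55), Ifit1 (0.48) and Isg20 (0.43) stayed past the upper threshold. Low counts limit Rsad2, Oasl1 and every ratio within small clusters.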

Other observations

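Lists read beside the members are given here over all cells, as single values per library. They were chosen with earlier results of these data known, so their counts are descriptions and no independent support. At least 25% higher in old recipient than in young donor cells were 9 of 10 genes of the Gzmk age-associated list (median log2 0.71) and 6 of 17 interferon-inducible GTPases (0.25), beside 7.54% of all genes. Of 57 other interferon-stimulated genes 5 were higher and 3 lower (0.07), shares near those of all genes. The GTPase gene Iigp1 had 8.42 CPM in recipient and 4.77 CPM in donor cells (0.82), and Gbp10 3.18 CPM in recipient and 1.87 CPM in donor cells (0.77). Of 18 receptor and signalling genes 3 were higher, among them the interferon gamma receptor gene Ifngr2, at 15.4 CPM in recipient and 6.90 CPM in donor cells (1.16). The type I receptor genes lay slightly the other way, with Ifnar1 at 44.1 CPM in recipient and 47.5 CPM in donor cells (-0.11). Of 13 memory genes 9 were at least 20% lower in recipient cells, beside 5.37% of all genes, with Ly6c2 at 792 CPM in recipient and 1415 CPM in donor cells (-0.84).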
